A study of Rattus norvegicus with 32 samples.

Results

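Microglia identity genes and the 3 genes of complement C1q were followed through 4 brain regions of adult male Sprague-Dawley rats after a methamphetamine (METH) binge. The set holds 10 genes, namely Aif1, Cx3cr1, P2ry12, Tmem119, Csf1r, C1qa, C1qb, C1qc, Trem2 and Itgam, taken by symbol from the 28914 genes of the count tables. All 10 were found, and all 10 passed the filter on low counts in every comparison. The pair-housed rats received 4 intraperitoneal injections of METH at 10 mg/kg, spaced 2 h apart, or saline (Sal) on the same schedule, and tissue was taken the day after the last injection. The nucleus accumbens (NAc), the dentate gyrus (DG), the cornu ammonis (CA) of the hippocampus and the subventricular zone (SVZ) were sequenced as total RNA depleted of ribosomal RNA, with 4 METH and 4 Sal samples in each region and 32 in all. No genetic change was introduced, and by design the groups differed by region and injection. The labels do not say that the 4 samples of a group came from 4 rats, so the p-values measure the spread between these samples, which may in part be technical.

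Microglia are the resident macrophages of the brain. They need signalling through Csf1r, the receptor of Csf1 and Il34, to survive, they sense neurons through the fractalkine receptor Cx3cr1 and ADP through P2ry12, and they carry the membrane protein Tmem119, the calcium-binding protein Aif1 (Iba1), the lipid-sensing receptor Trem2 and Itgam (CD11b), the alpha chain of complement receptor CR3. C1q, the recognition part of the classical complement pathway, is built from equal numbers of A, B and C chains encoded by C1qa, C1qb and C1qc, and in the brain it is made mainly by microglia. It can tag synapses and debris that microglia then take up through complement receptors. In rRNA-depleted RNA of whole tissue, fewer microglia and less RNA per microglial cell cannot be told apart.

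In the rn6 build used for counting, the C1q genes lie side by side on the minus strand of chromosome 5, from 155246447 to 155264143. This is a span of 17697 bases in the order C1qb, C1qc, C1qa, with gaps of 3001 and 2857 bases between them. Reads were counted without regard to strand. P2ry12 lies inside the span of Med12l, and the annotated span of Itgam also holds Itgax, a related integrin gene. No exon of either member overlaps an exon of the other gene. Reads from unspliced RNA of Med12l that fall on P2ry12 exons would still be counted for P2ry12, and their share was not tested. The counted model of Itgam has 7433 exon bases in 60 blocks, the most of the 10 members. The level per kilobase of Itgam, its differences between groups and its correlations all rest on that model, whose make-up was not tested. A promoter of 250 bases before to 50 bases after the start was given by RefSeq (GRCr8 build) for 6 of the 10 members (C1qa, C1qb, Csf1r, Cx3cr1, Itgam and Trem2). The promoters of the 3 members that the METH results turn on and that had an entry are printed 5′ to 3′ along the gene, with the capitals marking GAGGAA or GGAAGT on either strand, cores of the sites bound by PU.1 and other ETS factors. PU.1, encoded by Spi1, is the factor that sets up macrophage and microglial gene expression.
C1qa (minus strand, chr5:154419884-154420183): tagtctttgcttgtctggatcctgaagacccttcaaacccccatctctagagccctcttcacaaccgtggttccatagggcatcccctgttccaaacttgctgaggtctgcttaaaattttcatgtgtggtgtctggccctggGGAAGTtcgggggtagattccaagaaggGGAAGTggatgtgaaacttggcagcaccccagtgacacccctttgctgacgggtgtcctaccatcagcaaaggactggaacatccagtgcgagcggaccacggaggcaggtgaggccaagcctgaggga
C1qb (minus strand, chr5:154407778-154408077): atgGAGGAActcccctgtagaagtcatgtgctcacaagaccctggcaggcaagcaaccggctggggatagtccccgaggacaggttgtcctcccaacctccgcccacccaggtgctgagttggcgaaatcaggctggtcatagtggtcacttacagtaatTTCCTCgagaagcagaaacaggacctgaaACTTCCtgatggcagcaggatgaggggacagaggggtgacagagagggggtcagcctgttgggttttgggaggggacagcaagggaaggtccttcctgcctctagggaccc
Itgam (plus strand, chr1:192089342-192089641): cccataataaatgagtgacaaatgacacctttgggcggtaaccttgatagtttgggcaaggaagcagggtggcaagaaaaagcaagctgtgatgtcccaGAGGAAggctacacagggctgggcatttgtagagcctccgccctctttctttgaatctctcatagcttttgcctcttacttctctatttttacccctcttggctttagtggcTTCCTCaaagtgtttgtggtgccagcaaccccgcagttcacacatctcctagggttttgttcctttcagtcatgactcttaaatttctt
The C1qa window held GGAAGT at 79 and at 107 bases before the start. In the C1qb window the matches stood at 61, 90 and 247 bases before the start, and in the Itgam window at 39 and 151 bases. At least 1 of the 2 motifs was found in 6 of 6 members' windows and in 42.3% of all 33469 promoters of the same length, GAGGAA in 27.6% and GGAAGT in 22.6%. A match describes these letters and is not a measured site.

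Each library held 11094002 to 21869773 reads counted on genes (median 14533166.5), with the SVZ libraries at 17269245 or more. Levels are given as CPM, counts scaled to a common depth by upper-quartile library sizes, where 1 read is worth 0.0459 to 0.0940 CPM, and the members had 55 to 2280 reads in a library. Some libraries stood apart in genes of their region. The summed level of 10 striatal medium spiny neuron markers was 336 CPM in NAc METH 3 against 2184 to 10653 in the other 7 NAc libraries, and 2533 CPM in DG Sal 3 against 304 to 561 in the other DG libraries. In the SVZ it was 425 CPM in SVZ Sal 1 and 307 in SVZ METH 2 against 1043 to 7548 in the other 6. Markers of dentate granule neurons did not set the DG apart, with sums of 236 to 768 CPM in the DG and 182 to 379 in the NAc. Choroid plexus markers summed to 2237 CPM or more in DG Sal 4, DG METH 3, CA Sal 2 and SVZ METH 3 and to 399 or less in all others. The sample names in the file headers carry a library number, and 4 of the 8 numbers of the NAc, DG and CA (14, 15, 20 and 21, replicates 1 and 2 of each DG group) stood under the opposite treatment in the DG. The SVZ METH libraries shared numbers in pairs (1669 and 1670). DG results are therefore those of the libraries labelled METH and Sal, and are given also with DG replicates 3 and 4 only. That subset holds DG Sal 3, DG Sal 4 and DG METH 3, which stood apart in the marker sums above, so it is not free of tissue differences. The header names also carry a further label, called the sequencing run here, although the headers do not say what it stands for. This run label was partly confounded with treatment. In the NAc, 2 Sal and 2 METH libraries shared a run, and in the DG 1 Sal library (DG Sal 3) and 2 METH libraries did. In the CA, 1 Sal and 2 METH libraries shared each of 2 runs. CA Sal 1 and CA Sal 2 were labelled as merged, which was treated as a run of its own. All SVZ libraries were in a run of their own, so that SVZ and run cannot be told apart.

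The members were detected in every library, at a level that varied less than that of some marker lists and more than that of others. Their summed level ranged from 189 to 341 CPM over the 32 libraries, a 1.81-fold range, against 35.6-fold for the medium spiny neuron markers and 11.4-fold for the oligodendrocyte markers. The astrocyte and pan-neuronal markers had ranges of 1.80-fold and 2.11-fold, close to that of the members. The ranges were smaller for other homeostatic microglia genes (1.48-fold), myeloid signalling and surface genes (1.55-fold) and reactive microglia genes (1.64-fold). Per kilobase of exon, C1qa was the most abundant with 31.6 ± 5.57 CPM per kb (SD, n = 32), followed by Csf1r with 24.5 ± 3.85, C1qb with 22.0 ± 3.64, C1qc with 15.9 ± 2.84 and Cx3cr1 with 15.7 ± 3.04. The less abundant genes were P2ry12 with 8.27 ± 1.85 CPM per kb, Tmem119 with 5.66 ± 1.64, Trem2 with 5.42 ± 0.934, Aif1 with 4.13 ± 0.921 and Itgam with 2.45 ± 0.555. This order held in nearly all libraries for most neighbours, since C1qa stood above Csf1r, C1qb above C1qc, Cx3cr1 above P2ry12 and Aif1 above Itgam in 32 of 32. For 2 pairs of neighbours the levels did not differ beyond their spread, with C1qc above Cx3cr1 in 14 of 32 libraries and Tmem119 above Trem2 in 17 of 32. In CPM, Csf1r spread least, from 76.3 to 141 (1.84-fold), and Tmem119 most, from 6.55 to 19.1 (2.91-fold).

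Markers of macrophages at the borders of the brain and of blood cells were low but present. The 8 border macrophage markers found in the tables, of 10 listed, summed to 12.6 to 37.8 CPM in a library, led by Stab1 (2.80 to 11.1 CPM) and Mrc1 (2.87 to 11.4). Ms4a7, a defining marker of these cells, was at 0 in 12 of 32 libraries. The neutrophil genes S100a8 and S100a9 were at 0 in 16 and 11 libraries. The blood list, mostly haemoglobin, summed to 64.3 to 323 CPM. The lowest sum of the members stood above the highest sum of the border macrophage markers, and the share of the members' RNA that came from cells other than microglia was not tested.

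**Figure D1:**
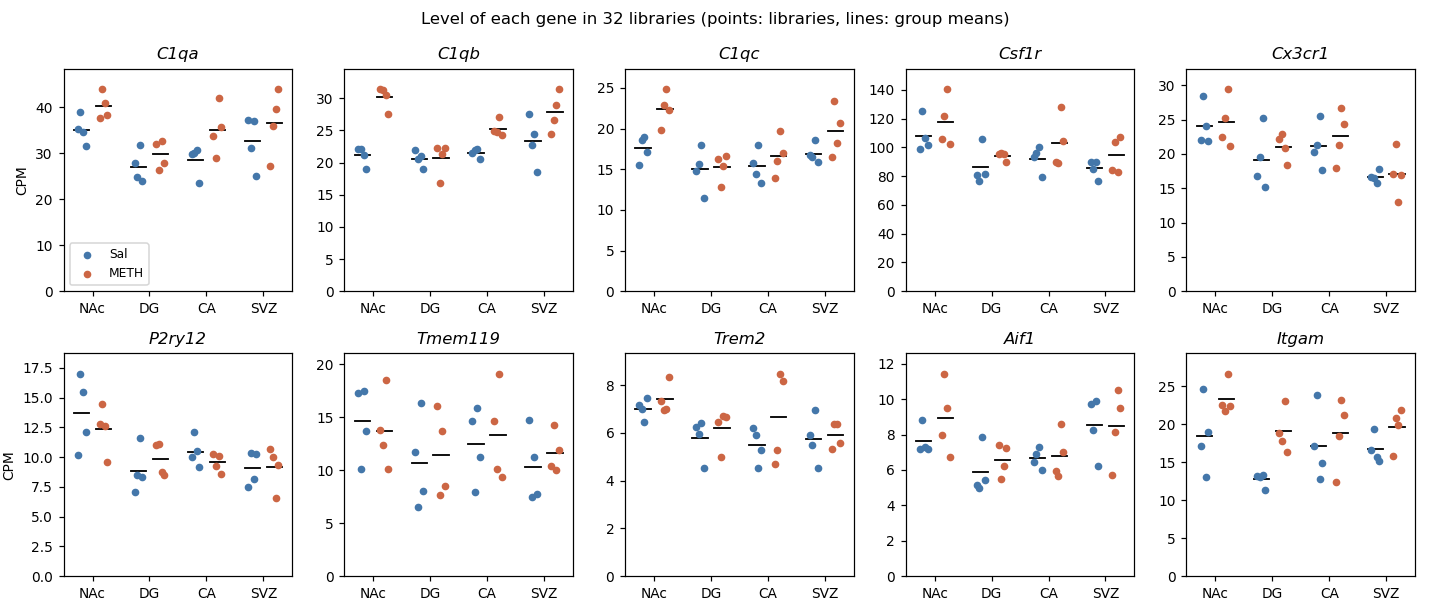
CPM of each of the 10 genes in the 32 libraries, by region, with Sal in blue and METH in orange. Points are libraries and black lines the means of 4. In the NAc all 4 METH points of C1qb (27.5 to 31.4 CPM) stand above all 4 Sal points (19.1 to 22.1), and in the DG those of Itgam (16.4 to 23.1) stand above Sal (11.3 to 13.3).

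The saline libraries show how the genes were spread over the regions without drug. The NAc had the highest mean of 8 of the 10 genes, all but Aif1 and C1qb, and the DG had the lowest mean of 6. P2ry12, the purinergic receptor of surveying microglia, had 10.2, 17.0, 15.5 and 12.1 CPM in the 4 NAc Sal libraries and 7.04, 8.47, 11.6 and 8.30 in the DG ones. Except for DG Sal 3, every DG library stood below every NAc library. The NAc minus DG difference was 0.62 on the log2 scale (SE 0.19, edgeR FDR = 0.366). Csf1r (0.32, SE 0.12), Itgam (0.53, SE 0.20), C1qa (0.37, SE 0.14) and Cx3cr1 (0.33, SE 0.15) were also higher in the NAc at an unadjusted p under 0.05, and all 10 genes had a positive difference. At that p, 11.4% of the 15515 genes tested differed between these regions, against 5 of 10 members. The count was 8 of 10 without DG Sal 3 and 1 of 10 without NAc Sal 2. It was also 1 of 10 with DG replicates 3 and 4 only, Itgam with 0.58 (SE 0.26), and P2ry12 differed by 0.46 (SE 0.23).

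Cx3cr1 had its lowest mean in the SVZ. It had 16.6, 16.5, 15.7 and 17.7 CPM in the SVZ Sal libraries against 22.1, 28.4, 24.1 and 21.9 in the NAc and 20.3, 21.2, 25.5 and 17.7 in the CA. The NAc and SVZ values did not overlap. The DG Sal libraries, at 16.8, 19.6, 25.2 and 15.1 CPM, overlapped the SVZ ones, and DG minus SVZ was 0.21 (SE 0.15), not past an unadjusted p under 0.05. The difference was 0.54 for NAc minus SVZ (SE 0.15, edgeR FDR = 0.177) and 0.35 for CA minus SVZ (SE 0.15, FDR = 0.133). At an unadjusted p under 0.05, P2ry12 (0.60, FDR = 0.222) and Csf1r (0.34, FDR = 0.256) were also higher in the NAc than in the SVZ, and Aif1 was lower in the DG than in the SVZ (-0.54, FDR = 0.161). For NAc minus CA, Trem2 (0.36, FDR = 0.193) and C1qa (0.30, FDR = 0.204) were higher in the NAc, and for DG minus CA, Itgam was lower in the DG (-0.43, FDR = 0.562). With DG replicates 3 and 4 only, Aif1 for DG minus SVZ was -0.36 (SE 0.21) and Itgam for DG minus CA -0.48 (SE 0.26), and neither reached that p. The members past this p were 3 of 10 for NAc against SVZ (12.5% of all genes), 2 for NAc against CA (24.1%), and 1 each for DG against CA (8.82%), DG against SVZ (17.5%) and CA against SVZ (31.4%). For NAc against CA the count was 4 with the replicate number as a block, which pairs these libraries, and 0 with TMM scaling. Outside the NAc against DG and NAc against SVZ pairs the members' share was thus near or below that of all genes. By an FDR under 0.01 with a fold above 2, no member was called in any of the 6 pairs by edgeR. DESeq2 called none of the members that had an unadjusted p under 0.05 with edgeR, the only ones checked there. With edgeR that rule called 0.715% of all genes between CA and SVZ and 0% in the other 5 pairs, while DESeq2 called 766 genes between CA and SVZ, 529 for NAc against CA, and fewer in the other pairs.

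After METH, C1qb was the member that stood out in the NAc. Its level was 22.1, 22.1, 21.2 and 19.1 CPM in the Sal libraries and 31.4, 31.3, 30.4 and 27.5 in the METH libraries. All 4 METH libraries stood above all 4 Sal libraries, with a gap of more than 5 CPM between the groups. The mean was 21.1 ± 1.44 CPM (SD, n = 4) with Sal and 30.2 ± 1.81 with METH. The fitted difference was 0.53 on the log2 scale, or 44.1%, with an SE of 0.087 and a 95% interval of 0.33 to 0.72. Adjusted over all 14771 genes tested it did not pass (edgeR quasi-likelihood FDR = 0.999), while DESeq2 gave it an FDR of 0.00971 with a fold under 2. The methods also remove RUVr factors, of a number not stated. With 2 such factors the edgeR FDR of C1qb was 0.0447, and with 1 factor no member was under 0.05 in any region. The difference was 0.52 without NAc METH 3 (SE 0.098), 0.65 with the sequencing run as a covariate (SE 0.12), and 0.64 between the 2 METH and 2 Sal libraries that shared a sequencing run.

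The other C1q chains were also higher in the NAc, by less. C1qc, the C chain, had 15.5, 18.6, 19.0 and 17.2 CPM with Sal and 19.8, 22.9, 24.9 and 22.2 with METH. The groups did not overlap, and the difference was 0.37 (SE 0.11, edgeR FDR = 0.999). With the sequencing run as a covariate it was 0.25 with an SE of 0.16, which did not reach an unadjusted p under 0.05. C1qa, the A chain, had 35.3, 39.1, 34.6 and 31.5 CPM with Sal and 37.8, 43.9, 40.9 and 38.3 with METH. Here NAc Sal 2 stood among the METH libraries, and the difference of 0.21 (SE 0.092) reached that p with all libraries but not in 7 of the 8 fits that each left out 1 library, the one without NAc METH 3 among them (0.20, SE 0.10). With TMM scaling the C1qa difference was 0.18 and did not reach it either. By these counts 3 of 10 members passed an unadjusted p under 0.05 in the upward direction, against 2.41% of all genes, and 2 of 10 had groups that did not overlap, against 1.35%. No member was called at an FDR under 0.01 and a fold above 2 by edgeR or DESeq2. With edgeR this rule called 0% of the genes in each of the 4 regions, while 494 genes in the NAc, 1865 in the DG, 1034 in the CA and 393 in the SVZ had an unadjusted p under 0.05.

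In the CA, C1qb was again the member with non-overlapping groups. Its Sal libraries held 21.6, 22.0, 22.1 and 20.6 CPM and its METH libraries 24.9, 24.8, 27.1 and 24.3. The groups were separated by more than 2 CPM, with CA METH 3 the highest. The difference was 0.23 (SE 0.074, edgeR FDR = 0.676), or 17.1%. It was the only member past an unadjusted p under 0.05, a level that 4.32% of all genes passed upward, while 2.57% had non-overlapping groups. C1qa differed by 0.30 (SE 0.13, FDR = 0.705), and the range of C1qa with METH, 28.9 to 42.1 CPM, held all the Sal values but CA Sal 4 at 23.5. C1qc differed by 0.11 (SE 0.14). Without CA METH 3, C1qb differed by 0.19 (SE 0.074), C1qa by 0.20 and C1qc by 0.017.

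The SVZ gave values in the same direction with more overlap. C1qb had 27.5, 22.8, 24.4 and 18.5 CPM with Sal and 24.4, 26.6, 28.9 and 31.5 with METH, so that SVZ Sal 1 stood above 2 of the METH libraries. The differences were 0.26 for C1qb (SE 0.14), 0.23 for C1qc (SE 0.13) and 0.18 for C1qa (SE 0.18), each with an edgeR FDR of 0.982. No member passed an unadjusted p under 0.05 in the SVZ or had groups that did not overlap, against 1.2% and 0.847% of all genes. With the SVZ METH libraries of a shared number added together, C1qb differed by 0.24 (SE 0.19). Without SVZ Sal 1 it differed by 0.35 (SE 0.14), the only 1 of the 8 fits that each left out 1 library to pass that p. It differed by 0.17 without SVZ Sal 4 (SE 0.13), 0.20 without SVZ METH 4 (SE 0.15) and 0.28 without SVZ METH 2 (SE 0.16). The oligodendrocyte markers had a higher mean with METH here, with overlap, summing to 4222 to 20054 CPM with Sal and 9396 to 29241 with METH, the highest in SVZ METH 2 and 4, and their part in these differences was not tested.

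In the DG, with all 8 libraries as labelled, C1qb and C1qc differed little. C1qb had 22.0, 20.5, 20.95 and 19.0 CPM in the Sal libraries and 22.2, 16.8, 21.4 and 22.3 in the METH libraries, with the ranges overlapping almost throughout. The difference was 0.0060 on the log2 scale (SE 0.12, 95% interval -0.26 to 0.27), and the values were 0.025 for C1qc (SE 0.15) and 0.14 for C1qa (SE 0.12). With DG replicates 3 and 4 only they were 0.12 for C1qb (SE 0.16), 0.11 for C1qc (SE 0.28) and 0.12 for C1qa (SE 0.22), close to the CA value of C1qc. C1qb was the only member whose METH effect differed between the 4 regions at an unadjusted p under 0.05 (edgeR FDR = 0.508), a level that 7.72% of all genes passed, so that 1 of 10 members is near the background. C1qb did not reach it with DG replicates 3 and 4 only. At an FDR under 0.01, with no fold threshold in this test, edgeR called 0% of genes for this difference and DESeq2 called 26. Of the 8 DG libraries, 4 carry a number found under the other treatment in the NAc and CA, and whether labels were exchanged was not tested.

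**Figure D2:**
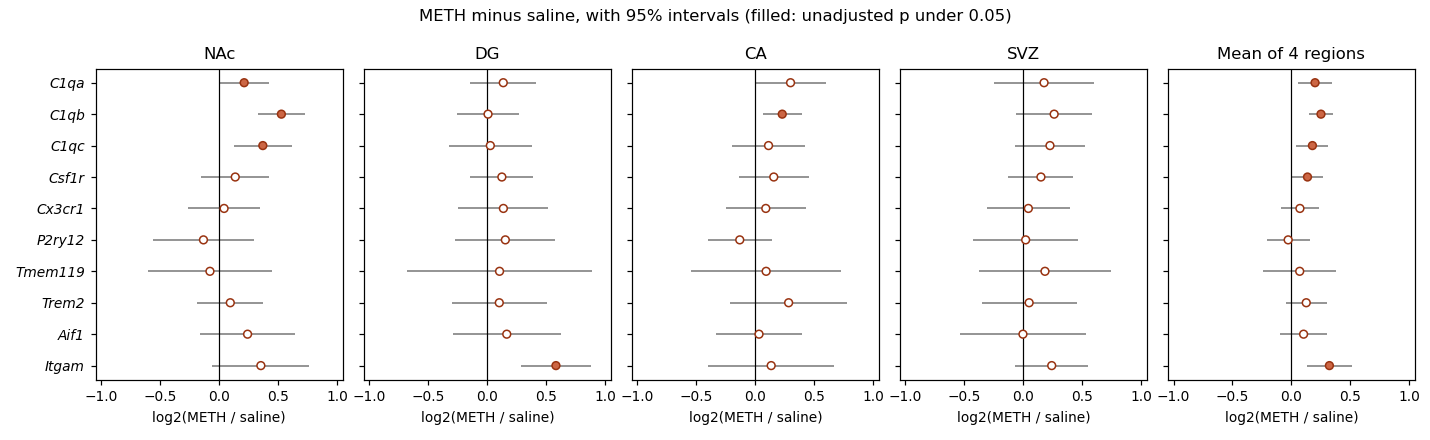
Log2 fold change of METH against Sal for each gene in the NAc, DG, CA and SVZ and for the mean over the 4 regions, with 95% intervals from edgeR. C1qb has an interval above 0 in the NAc, in the CA and for the mean, Itgam in the DG and for the mean, and every interval lies within 2-fold.

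Among the receptors, Itgam differed most, and in the DG. Its level was 13.1, 13.1, 13.3 and 11.3 CPM in the DG Sal libraries and 18.8, 17.8, 23.1 and 16.4 in the DG METH libraries. The lowest METH library stood about 3 CPM above the highest Sal library. The difference was 0.58 (SE 0.13, edgeR FDR = 0.182), or 49.7%. Itgam was 1 of 10 members past an unadjusted p under 0.05 in the DG against 6.26% of all genes, and 1 of 10 without overlap against 3.91%. DESeq2 gave it an FDR of 0.0102. It was 0.61 without DG Sal 3, 0.68 with replicates 3 and 4 only, whose numbers carry the same treatment in all 3 regions (SE 0.25), and 0.46 with the sequencing run as a covariate (SE 0.25). The last is a fit in which the treatment rests on DG Sal 3 and 2 METH libraries of its run. In the NAc, Itgam had 17.1, 24.6, 13.1 and 18.9 CPM with Sal and 22.5, 21.7, 26.6 and 22.4 with METH. There NAc Sal 2 stood among the METH libraries, and the difference was 0.35 (SE 0.18). It was 0.13 in the CA (SE 0.24), where it was 0.013 without CA METH 3, and 0.24 in the SVZ (SE 0.13).

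The other 9 members of the DG had positive differences from 0.0060 to 0.16, none at an unadjusted p under 0.05. These values depended on single libraries. DG Sal 3, the library with medium spiny neuron markers, was the highest DG Sal library for Aif1 (7.87 CPM against 4.98 to 5.42), Cx3cr1 (25.2 against 15.1 to 19.6), Tmem119 (16.3 against 6.55 to 11.7) and Csf1r (106 against 76.3 to 81.6). Without it, 3 members passed an unadjusted p under 0.05, namely Itgam, Cx3cr1 (0.30) and Csf1r (0.24). With the sequencing run as a covariate the only Sal library set against METH libraries of its run is DG Sal 3 itself, and in that fit the 9 members were negative, from -0.47 for Tmem119 to -0.075 for P2ry12. With replicates 3 and 4 only, no member passed that p, and Cx3cr1, P2ry12, Tmem119 and Csf1r were negative.

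Csf1r, on which microglia depend, differed by 0.14 in the NAc, 0.12 in the DG, 0.16 in the CA and 0.15 in the SVZ, with SEs of 0.12 to 0.13. These values rested in part on single libraries, since they were 0.036 in the NAc without NAc METH 3, 0.029 in the CA without CA METH 3 and 0.083 in the SVZ without SVZ METH 4. Its ranges overlapped in every region, for example 99.1 to 126 CPM with Sal and 103 to 141 with METH in the NAc. Trem2, the receptor that signals through Tyrobp, stood at 8.48 and 8.16 CPM in CA METH 3 and CA METH 4, the highest of the CA, while CA METH 1 and 2 (4.68 and 5.28) lay within the Sal range of 4.55 to 6.19. Its difference in the CA was 0.28 (SE 0.22), and it lay between 0.049 and 0.10 in the other regions.

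The homeostatic markers gave values of both signs. P2ry12 differed by -0.13 in both the NAc and the CA (SE 0.19 and 0.12), and by 0.15 and 0.020 in the DG and the SVZ. Cx3cr1 differed by 0.041 to 0.14 and Tmem119 by -0.079 to 0.18 over the 4 regions, none at an unadjusted p under 0.05. Aif1 was 0.24 higher in the NAc (SE 0.18), where the METH libraries ran from 6.75 to 11.4 CPM around the Sal values of 7.16 to 8.81, and within 0.17 of 0 elsewhere. For all 40 pairs of member and region, the 95% interval lay within 2-fold in either direction, the widest being that of Tmem119 in the DG, from -0.68 to 0.89. Of these, 36 were positive, but regions may share rats and genes share cells, so these are not 40 independent values.

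Averaged over the 4 regions, 9 of the 10 members were higher with METH, with a median of 0.13 on the log2 scale against 0.0072 for all 16122 genes in that fit. C1qb had the lowest edgeR FDR, 0.165, with a difference of 0.25 (SE 0.051). Itgam followed with 0.32 (SE 0.093, FDR = 0.494), C1qa with 0.20 (SE 0.070, FDR = 0.523), C1qc with 0.18 (SE 0.066, FDR = 0.548) and Csf1r with 0.14 (SE 0.063, FDR = 0.616). The remaining values were 0.13 for Trem2, 0.10 for Aif1, 0.072 for Cx3cr1, 0.071 for Tmem119 and -0.027 for P2ry12. Thus 5 of 10 members passed an unadjusted p under 0.05 upward against 4.26% of all genes (7.74% in either direction), and none was called by the FDR and fold rule, which called 0% of genes with edgeR. Csf1r did not reach that p in 17 of the 32 fits that each left out 1 library. Without the DG, C1qb differed by 0.33 (SE 0.057, edgeR FDR = 0.0315), C1qc by 0.23 (SE 0.071) and C1qa by 0.22 (SE 0.084), while Itgam (0.24, SE 0.12) and Csf1r (0.14, SE 0.075) did not reach an unadjusted p under 0.05. With DG replicates 3 and 4 only, C1qb differed by 0.28 (SE 0.054, FDR = 0.0473) and Csf1r by 0.096 (SE 0.073), which did not reach that p. Both of these fits were added after the data were seen. The DG had the smallest C1qb difference of the 4 regions, so leaving it out raises the C1qb mean. Samples of 1 rat may be in each fit of the mean under several regions, so its samples may not all be independent.

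The ratio between C1q chains was set apart in 1 group. Per kilobase, C1qb stood at 0.583 ± 0.025 of C1qa in the NAc Sal libraries (SD, n = 4), with values of 0.606, 0.548, 0.595 and 0.585. With METH the NAc values were 0.804, 0.689, 0.720 and 0.695, a mean of 0.727 ± 0.053. All 4 NAc METH ratios stood above all 4 NAc Sal ratios, and the latter were also below every ratio of the other 3 regions, the lowest of which was 0.614. In those regions the Sal and METH ratios overlapped, around a mean of 0.701 over all 32 libraries. The ratio of C1qc to C1qa overlapped between treatments in every region, from 0.394 to 0.625 over all libraries.

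**Figure D3:**
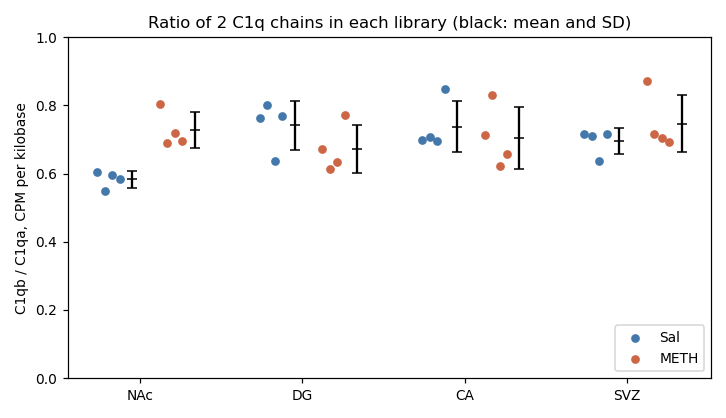
Ratio of C1qb to C1qa, both in CPM per kilobase of exon, in each library by region and treatment, with the mean and SD of 4 in black. The NAc Sal libraries lie at 0.548 to 0.606 and the NAc METH libraries at 0.689 to 0.804, while Sal and METH overlap in the DG, CA and SVZ.

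The ligands, partners and downstream components of the same pathways were read from a list of 16 genes. Of the 15 tested for the mean over the regions, 5 passed an unadjusted p under 0.05, of which 4 were higher with METH, against 7.74% of all genes in either direction, and none was called. Tyrobp, the adaptor through which Trem2 signals, was higher by 0.35 (SE 0.089, edgeR FDR = 0.428), with 0.47, 0.23, 0.36 and 0.37 in the NAc, DG, CA and SVZ. Tgfb1, a cytokine that maintains microglial identity, was higher by 0.20 (SE 0.070, FDR = 0.523), with 0.34 in the NAc and 0.48 in the CA. Csf1, a ligand of Csf1r, was higher by 0.31 (SE 0.15, FDR = 0.642), with 0.46 in the DG and 0.72 in the SVZ, whereas the other ligand, Il34, differed by -0.060 (SE 0.15). Spi1, which encodes PU.1, was higher by 0.18 (SE 0.080, FDR = 0.606). Cx3cl1, the neuronal ligand of Cx3cr1, was lower (-0.26, SE 0.13, FDR = 0.627), with -0.45 in the SVZ (SE 0.12). Itgb2, the beta chain that pairs with Itgam, differed by -0.14 (SE 0.16), and the microglial transcription factors Irf8 and Sall1 by -0.042 and -0.057 (SE 0.12 and 0.13). The 15 genes had a median of 0.18, and 10 of them were higher.

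Of the complement components past C1q, Serping1, the inhibitor of C1r and C1s, was higher in the NAc by 1.604 on the log2 scale (SE 0.50, edgeR FDR = 0.999), and C2 in the CA by 0.61 (SE 0.24, FDR = 0.681). Over the 4 regions Serping1 differed by 0.28 and C2 by 0.15 (SE 0.32 and 0.14), with Serping1 at -1.17 in the DG (SE 0.92). The C1q-bound proteases C1r (0.26) and C1s (0.33), the central component C3 (0.11) and C4b (0.26) did not reach an unadjusted p under 0.05 for that mean or in a region. C4b was filtered out in the NAc and C4a in every fit. C4a and C4b are near-identical copies whose reads the counting could not fully separate. Over the 18 tested genes of the wider complement list, 16 were higher for the mean over the regions and 2 had an unadjusted p under 0.05, Clu (0.21, SE 0.097) and Masp1 (0.33, SE 0.15), against 7.74% of all genes, and the median was 0.18.

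The other myeloid lists were described by the same counts. Of the 20 tested genes of myeloid signalling and surface proteins, 17 were higher in the NAc, 15 in the DG, 19 in the CA and 18 in the SVZ, where 57.8%, 48.0%, 51.1% and 52.9% of all genes were higher. For the mean over the regions 52.3% of all genes were higher, and in this list 6 had an unadjusted p under 0.05 upward, among them Cd53 (0.28, SE 0.089, FDR = 0.523). The median of that list was 0.14. Of 15 other homeostatic genes, 9 were higher for the mean with a median of 0.044, with Tgfbr1 (0.27, SE 0.074) and Crybb1 (0.40, SE 0.18) among the 3 at an unadjusted p under 0.05 and Entpd1 the 1 in the other direction (-0.44, SE 0.20). In the CA, Crybb1 differed by 1.30 (SE 0.27, FDR = 0.676). Of 18 reactive microglia genes 14 were higher for the mean with a median of 0.14, including Gpnmb (0.46, SE 0.15), with 0.74 in the NAc and 0.92 in the SVZ, and Cd14 (0.71, SE 0.30). Cd74, a part of antigen presentation, was higher in the NAc by 1.49 (SE 0.48). Of 10 myeloid transcription factors 5 were higher, with a median of -0.00058.

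Markers of other cells stood higher beside the members in the NAc. The astrocyte markers summed to 3379 to 3642 CPM in the NAc Sal libraries and to 3774 to 5544 in the NAc METH libraries, and 8 of the 10 genes were higher in the NAc. Gfap, the astrocyte filament, was higher by 1.58 (SE 0.32) and the glutamate transporter Slc1a3 by 0.38 (SE 0.094), while Fgfr3 (-0.18) and Gja1 (-0.12) had negative values. In the DG these sums were 3082 to 3842 with Sal and 4342 to 4554 with METH, and in the CA and SVZ they overlapped. Of the 5 border macrophage genes tested in the NAc and in the CA, 4 and 3 had positive values. Stab1, the 1 past an unadjusted p under 0.05, was higher by 0.71 (SE 0.26) in the NAc and 0.87 (SE 0.24) in the CA, while Mrc1 differed by 0.20 and 0.11 and Lyve1 by -0.19 and -0.40. That list summed to 15.9 to 23.7 CPM with Sal and 20.5 to 30.3 with METH in the NAc. The part of these cells in the members' differences was not tested.

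Within groups the members went up and down together to an unequal degree. After subtracting each group's mean, the 45 pairs of members had a median Pearson correlation of 0.42 over the 32 libraries, from -0.30 to 0.84, and 15 pairs were over 0.5. Aif1 and C1qa (0.84), Cx3cr1 and Csf1r (0.78) and C1qa and C1qb (0.76) were the closest. P2ry12 stood outside, with a median of 0.069 to the others and -0.30 to Trem2, although it followed Cx3cr1 at 0.63. The points share libraries, depth and tissue composition, and the values are descriptions.

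**Figure D4:**
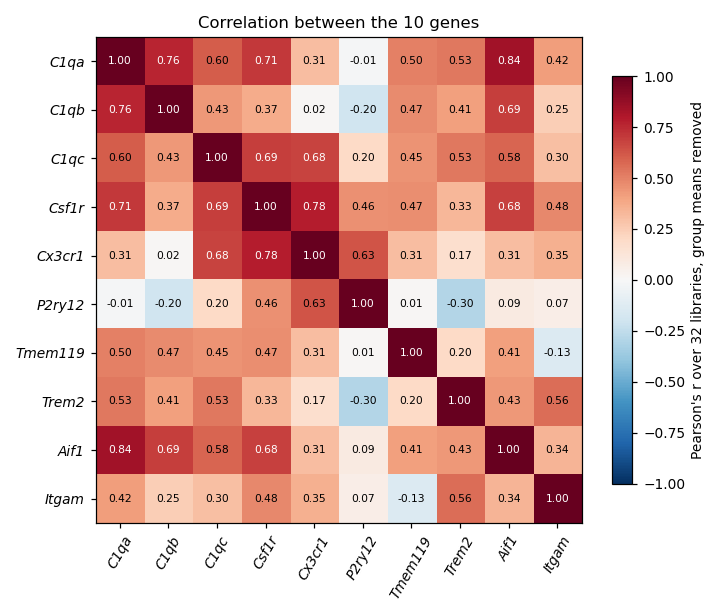
Pearson's r between the 10 genes over 32 libraries, computed on log2(CPM + 1) after the mean of each of the 8 groups was removed, from blue (-1) to red (1). P2ry12 is pale against most genes. C1qa is red with Aif1 (0.84), C1qb (0.76) and Csf1r (0.71), while C1qb is paler with Csf1r (0.37) and C1qc (0.43).

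By the same measure the 10 other genes most like the members' mean were Ctss (r = 0.88), Tmem176b (0.85), Slc2a5 (0.85), Laptm5 (0.84), Atp13a4 (0.81), Folh1 (0.79), Uhmk1 (0.78), Slc7a10 (0.77), Anxa3 (0.77) and Afmid (0.76). Ctss, which encodes cathepsin S, Laptm5, a lysosomal protein of blood-derived lineages, and Slc2a5, a fructose transporter, were on the myeloid lists. The rest of the 10 were on none of the lists. When the group means were kept, 4 of these 10 were again among the 10 most alike. The median r to the members was 0.34 for other homeostatic microglia genes and 0.34 for myeloid signalling and surface genes. It was 0.16 for myeloid transcription factors, 0.11 for reactive microglia genes and 0.17 for border macrophage markers. The astrocyte markers had a median of 0.19, with values from -0.35 to 0.76, and all 16112 genes 0.0070.

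Library number went with the level of most members. In the 24 NAc, DG and CA libraries, the 8 library numbers held 89.2% of the variance of Tmem119, a share that 0.105% of genes reached. Numbers 14, 20, 22 and 24 had mean levels of 15.98, 13.4, 16.5 and 17.1 CPM over their 3 regions, and numbers 15, 21, 23 and 25 had 8.57, 9.67, 11.01 and 9.31. The even numbers stood above the odd ones without overlap in each of the 3 regions, a split chosen after the values were seen. Each set held numbers of both treatments, and treatment as labelled held 0.205% of the variance of Tmem119. For the other members the numbers held from 25.6% for Aif1 to 74.6% for Itgam, against a median of 38.5% over all genes. Treatment held 43.4% of the variance of C1qb, 33.8% of C1qa and 30.5% of Itgam, against a median of 2.65%. The sequencing run held 43.0% for Cx3cr1, 40.8% for Csf1r, 35.6% for C1qc and 32.6% for Itgam, and from 7.71% to 30.9% for the other members, against a median of 14.0%. Number, run and treatment overlap in these libraries, and their parts were not separated. The labels do not say what the number or the run label stands for.

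**Figure D5:**
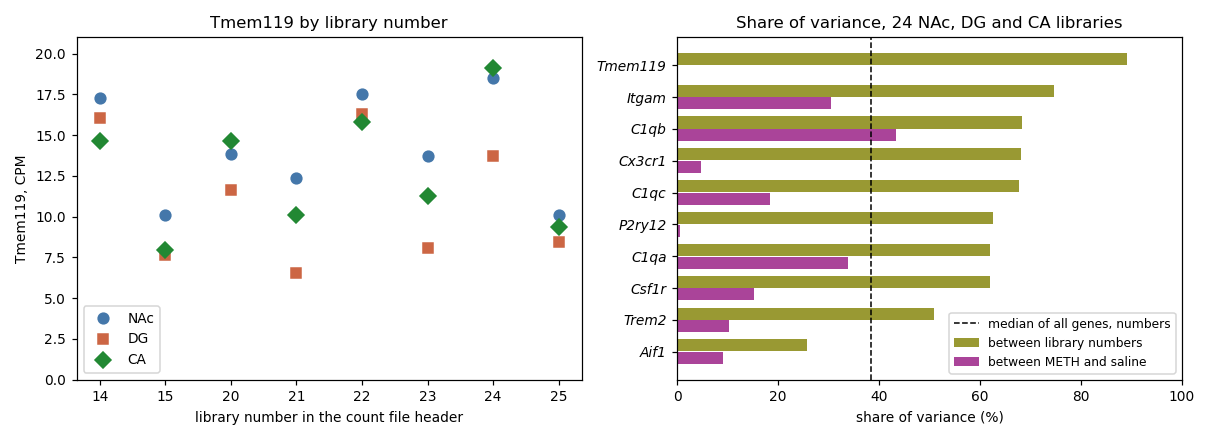
Left, CPM of Tmem119 in the 24 NAc, DG and CA libraries by the library number in the file headers, 1 symbol per region. Right, share of the variance of each gene that lies between library numbers and between METH and Sal, in percent, with the median of all genes for numbers dashed (38.5%). Tmem119 stands higher at numbers 14, 20, 22 and 24 than at 15, 21, 23 and 25 in all 3 regions, and its share between numbers is 89.2%.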

How the data were processed

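RNA-seq was measured in 32 samples. Per the submitters' processing notes, the authors trimmed reads with cutadapt 2.7, checked them with FastQC 0.11.4, mapped them to rn6 with STAR 2.5.2b and counted them per gene name with featureCounts. The deposited values used here are raw counts per gene in each sample, counted without regard to strand per the file headers, on an Ensembl annotation in the headers and a UCSC one in the methods. A count matrix of the series and columns of other values were not used.

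After upper-quartile scaling and the filterByExpr filter on low counts, groups were compared with edgeR 4.0.16 (glmQLFit robust, glmQLFTest, R 4.3.3), with Benjamini-Hochberg adjustment over all genes tested. A call needs an FDR under 0.01 and a fold above 2, the thresholds of the methods. For the difference between regions, tested on several contrasts at once, a call needs the FDR only. METH was compared with Sal in each region with its 8 samples, the saline regions in 1 fit of 16 samples, and the mean METH effect and its difference between regions (an F test) in 1 fit of 32. The depth of 11094002 to 21869773 reads limits the precision, and 1 read is worth 0.0459 to 0.0940 CPM. Correlations used log2(CPM + 1) with a pseudocount of 1. The scripts (with numpy 2.4.6, pandas 2.3.3 and matplotlib 3.10.9 under Python 3.11.15) were tested on simulated data.

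The members and gene lists were chosen with earlier results of these data known. The genes named are all members, all partners, the genes of lowest p in each other list, and the 10 genes most like the members. The alternatives were TMM, DESeq2 1.42.0, other filters and thresholds, 1 fit of all samples, the replicate number as a block, RUVr factors (the methods do not state their number) and leaving out each sample. The sequencing run as a covariate, only DG replicates 3 and 4 (in each comparison with the DG), the summed SVZ METH libraries, and the mean effect without the DG or without DG Sal 3 and NAc METH 3 were added after seeing the data. Pairing by replicate number was checked between METH and Sal within a region and between the Sal samples of 2 regions. Among these it held only for the NAc and CA saline samples. Their deviations from the group means correlated at 0.119 to 0.243 for all 4 numbers, and their headers carry the same library numbers. The NAc and CA METH samples also share library numbers, as do replicates 3 and 4 of the DG with both regions. METH samples were not checked between regions. No 2 replicates agreed within sampling noise.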

Additional observations from a re-analysis of the deposited data

Results flagged for a closer look

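The 80 groups of 4 libraries (10 genes in 8 groups) held 7 in which 1 library stood far from the other 3, where chance flags about 1 in 20 groups. In the DG, Aif1 was at 7.87 CPM in Sal 3 against 4.98 to 5.42 in the other Sal libraries, and Itgam at 11.3 CPM in Sal 4 against 13.1 to 13.3. DG METH 2 was low for C1qb (16.8 CPM against 21.4 to 22.3) and for Trem2 (4.98 CPM against 6.45 to 6.71), and DG METH 4 was low for Csf1r (89.6 CPM against 95.3 to 96.1). In the other regions, Aif1 was at 8.81 CPM in NAc Sal 2 against 7.16 to 7.31, and C1qa at 23.5 CPM in CA Sal 4 against 29.9 to 30.7. Of the 7, 5 were in the DG.

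The METH effect on C1qb passed an unadjusted threshold for a difference between the 4 regions, but not the adjusted one (edgeR quasi-likelihood F test, unadjusted p = 0.0152, FDR = 0.508). It was 1 of 10 members past a level that 7.72% of all genes passed. Its log2 differences were 0.53 in the NAc, 0.0060 in the DG, 0.23 in the CA and 0.26 in the SVZ. The p was 0.0272 without NAc METH 3 and 0.0282 without DG Sal 3. With DG replicates 3 and 4 only it was 0.0945.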

How the results depend on the processing

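No member was called under any setting among the 1456 values checked. These covered all members for METH in each region and for the mean effect. For the saline pairs they covered only members at an unadjusted p under 0.05 in the main fit. The difference between regions was not among them. In the NAc and CA, C1qb was higher under every alternative run (0.47 to 0.65 and 0.19 to 0.25), and Itgam in the DG (0.46 to 0.68). The causes of what follows were not tested. Genes called at FDR under 0.05 without a fold threshold numbered 1 in the DG, 751 for NAc minus CA, 18 for NAc minus SVZ, 9 for DG minus SVZ and 2011 for CA minus SVZ. DESeq2 called 1, 116, 3 and 2 genes in the NAc, DG, CA and SVZ. It called 11, 529, 44, 117 and 766 for NAc minus DG, NAc minus CA, NAc minus SVZ, DG minus SVZ and CA minus SVZ. For the difference between regions it called 26, by the FDR alone. A fit of all 32 samples called 343, 6, 4 and 588 genes for NAc minus CA, NAc minus SVZ, DG minus SVZ and CA minus SVZ, against 111 for the last in the saline fit, 33 there with no filter and 0 with the replicate block.

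Members at an unadjusted p under 0.05 were 2 in the CA with no filter, with 1 or 2 RUVr factors, with the run as a covariate and in the fit of all samples, 1 in the SVZ with 1 or 2 RUVr factors and in the fit of all samples, and 0 in the DG with the run or with replicates 3 and 4 only. With DG replicates 3 and 4 only they were also 1 for NAc minus DG and 0 for DG minus CA, DG minus SVZ and the difference between regions. For the mean effect they were 3 with the run and 3 without the DG. For NAc minus CA they were 0 with TMM, DESeq2 or no filter and 1 with CPM above 1, and for DG minus SVZ 2 in the fit of all samples. The replicate block, a pairing that held for NAc and CA saline only among the pairs checked, gave 8 members for NAc minus DG. It gave 4 for NAc minus CA and 3 for DG minus SVZ. The block moved no other count by over 1.5 times.

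Leaving out 1 library moved these counts to 1 to 3 in the DG (most without Sal 3), 1 to 2 in the CA (without METH 2), 0 to 2 in the SVZ (without METH 1), 1 to 8 for NAc minus DG, 0 to 4 for NAc minus CA (0 without NAc Sal 2, 4 without DG Sal 3), 0 to 2 for DG minus CA (without DG Sal 3), 1 to 3 for DG minus SVZ and 0 to 4 for CA minus SVZ (both most without SVZ Sal 4). Genes called went from 0 to 33, 175, 68 and 369 for NAc minus DG, NAc minus CA, DG minus SVZ and CA minus SVZ, each highest without DG Sal 3, and from 0 to 1 for the difference between regions (without DG Sal 1).

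Signs turned only for differences that did not reach an unadjusted p under 0.05 in the main fit. Some of them turned to larger values of the other sign. In the DG, C1qb was -0.0027 with no filter and -0.0011 with the replicate block. The run as a covariate gave -0.29 for Aif1, -0.17 for Cx3cr1, -0.075 for P2ry12, -0.47 for Tmem119, -0.16 for Csf1r, -0.13 for C1qa, -0.11 for C1qb, -0.32 for C1qc and -0.17 for Trem2 in the DG, -0.017 for Tmem119 in the CA and 0.034 for P2ry12 in the mean effect. Replicates 3 and 4 of the DG gave -0.047 for Cx3cr1, -0.21 for P2ry12, -0.14 for Tmem119 and -0.027 for Csf1r. P2ry12 was -0.0049 with summed SVZ libraries and 0.0096 in the mean without DG Sal 3 and NAc METH 3. With 1 library left out, the values ran from -0.062 to 0.13 for Cx3cr1 and -0.26 to 0.041 for Tmem119 in the NAc, from -0.098 to 0.39 for Tmem119, -0.032 to 0.092 for C1qb and -0.078 to 0.13 for C1qc in the DG, from -0.11 to 0.11 for Aif1, -0.0067 to 0.19 for Cx3cr1 and -0.14 to 0.23 for Tmem119 in the CA, from -0.13 to 0.14 for Aif1, -0.089 to 0.15 for Cx3cr1, -0.068 to 0.15 for P2ry12 and -0.046 to 0.15 for Trem2 in the SVZ, and from -0.059 to 0.012 for P2ry12 in the mean. With the group means kept, 4 of the 10 genes most like the members were shared. The least counted genes, Aif1 and Trem2, had as few as 57 and 55 reads in a library, which limits the precision of their values.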
